A study of Mus musculus with 8 samples.

Results

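Transcript levels in the normal submandibular gland of the mouse (1 array) were compared with those in the normal parotid gland (2 arrays), which are 3 of the 8 samples of the series. They were chosen by their labels, as untreated gland samples. Each sample was total RNA on a 1-colour Agilent mouse genome array. The other 5 samples were salivary tumours induced by AKT, a kinase of growth factor signalling: 2 untreated, 1 after 3 days of rapamycin (an inhibitor of the mTOR kinase) and 2 after 14 days. They entered this comparison through the shared estimate of spread and through the filter on dim probes, which spans all groups. Strain, genotype, age and sex of the gland donors are not given in the labels, nor whether the 2 parotid arrays came from separate animals or whether the adjoining sublingual gland was removed. Each p-value therefore measures only the spread between these arrays, and the lone submandibular array was assumed to vary like the replicated groups. The sex-linked transcripts, given below, differed between the 2 parotid arrays as between female and male animals. In whole tissue, fewer cells of a type and less RNA per cell cannot be told apart.

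The major salivary glands are branched trees of acini, which secrete proteins and an isotonic fluid, and ducts, which take up sodium chloride and add further proteins. The mouse parotid is a serous gland known for amylase, proline-rich proteins and parotid secretory protein. The mouse submandibular gland carries an additional segment, the granular convoluted duct, which stores growth factors, renin and kallikreins and is larger under androgens.

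Defining products followed the labels: Egf, Ren1 and Klk1b21 were high in the sample labelled submandibular, and Bpifa2, Amy1 and Prb1 in both labelled parotid.

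Levels are given as log2 of the processed signal minus the 75th percentile of the same array, so a level of 0 is the brightness of that percentile. Levels of different genes come from different probes and are not compared with each other. The 75th percentile signal was 276.6 intensity units on the submandibular array, 383.8 on parotid array 1 and 145 on parotid array 2, and 43.19%, 51.49% and 44.4% of spots were well above background. Genes at background sat lower on parotid array 1, the brighter array: Pnliprp1, a pancreatic lipase relative not well above background on any of the 3 arrays, read -5.21 in submandibular gland, -6.20 on parotid 1 and -5.23 on parotid 2. Across the 16362 genes tested, the submandibular array correlated at 0.904 with parotid 1 and 0.924 with parotid 2, and the parotid arrays at 0.928 with each other. These correlations are across genes, which are not independent replicates.

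A gene was counted as specific to a gland only where the parotid arrays agreed. It had to be at least 1 log2 unit, or 2-fold, apart from both parotid arrays on the same side, by more than the parotid arrays were apart from each other, and well above background in the gland where it was higher. By this rule 1557 genes (9.52%) differed, of which 770 genes (4.71%) were higher in submandibular gland and 787 (4.81%) higher in parotid. Of the 770, 170 were not well above background on either parotid array, and 77 had clone-type names. Of the 787, 421 were not well above background in submandibular gland, and 314 had clone-type names. The counts of dim genes are not comparable, since the first needs 2 dim arrays and the second 1. Of all 16362 genes, 12417 were well above background in submandibular gland, 14111 on parotid 1 and 12742 on parotid 2. Clone-type names made up 3026 of the 16362. Where the dimmer gland was not well above background, the size of the difference was not measured. The parotid arrays differed from each other by over 1 log2 unit in 4164 genes (25.4%), and in 227 genes the submandibular array lay at least 1 unit from both but by no more than the parotid arrays were apart. Just inside the rule were Gna14, at -0.11 in submandibular gland and -1.11 and -1.22 in parotid, and C3, at 5.95 against 6.96 and 6.96. Just outside were Pmepa1, at -0.36 against -1.63 and -1.36, and Sfxn3, at -0.11 against 1.16 and 0.89.

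The limma test over all 8 arrays, with Benjamini-Hochberg adjustment, called 384 genes at an adjusted p of 0.05 (2.35%). Of these, 223 were higher in submandibular gland (1.36%) and 161 in parotid (0.984%), and 221 (1.35%) and 161 (0.984%) also met the agreement rule. The calls rest on how alike the 2 tumour arrays of day 14 were. Leaving out either of those arrays left 9 calls. With the slide as a fixed block there were 118 calls, and with the 3 normal arrays alone 81. The agreement rule itself compares gland arrays only, on genes kept by the filter over all groups, and gave 778 and 790 genes with a filter on the normal glands.

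**Figure D1:**
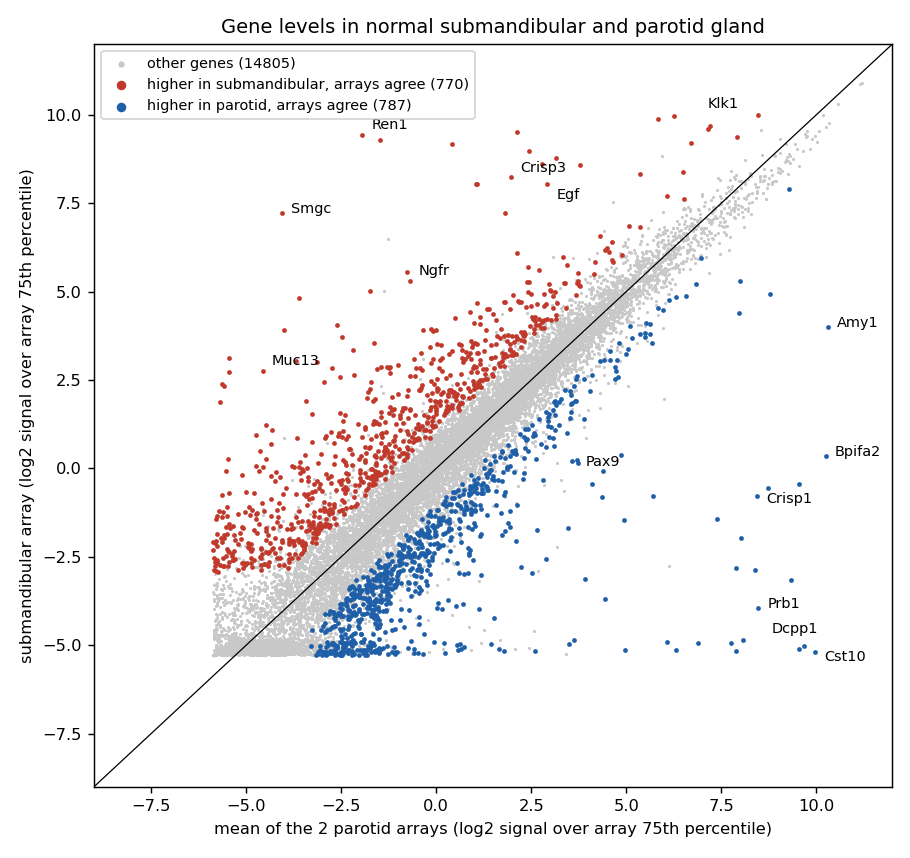
Level of each gene in the submandibular array (vertical axis) against the mean of the 2 parotid arrays (horizontal axis), both as log2 signal over the 75th percentile of the array. Red points are the 770 genes higher in submandibular gland and blue points the 787 higher in parotid by the agreement rule; the diagonal is equality, and the blue points in a row near -5 on the vertical axis are genes not well above background in submandibular gland.

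Many granular duct products were among the genes farthest from both parotid arrays on the submandibular side. Of 25 listed products of this duct 21 were tested. By the rule 17 were higher in submandibular gland and 2 in parotid, beside 4.71% and 4.81% of all genes. The limma test called 11 and 1 of them. Their median difference, submandibular minus parotid, was 5.11 on the log2 scale (5.41 against parotid 1 and 4.76 against parotid 2), beside -0.0043 over all genes tested.

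Renin, the protease that releases angiotensin I, was encoded by a pair of genes in the list. Ren1 (probe at chr1:135187628-135187687, mm8) was at 9.43 in submandibular gland and at -3.87 and -0.01 in parotid. The submandibular level lay far above both parotid levels, of which only parotid 2 was above background, and the difference was 11.37 ± 1.35 (SE; limma adjusted p = 0.018). Ren2, a near-identical copy that some strains carry, was at 9.27 against -3.42 and 0.47 (adjusted p = 0.0202). The probes may share transcripts, so the values of these copies cannot be assigned to either with certainty.

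Egf, epidermal growth factor, was at 8.03 against 2.77 and 3.08, a difference of 5.11 ± 0.31 (limma adjusted p = 0.00305), and was above background in both glands. It stood apart from each parotid array by more than the parotid arrays did from each other. Ngfr, the low-affinity neurotrophin receptor, was also higher in submandibular gland, at 5.30 against -0.38 and -1.0 (difference 5.99 ± 0.31, limma adjusted p = 0.00197). It was on the nerve and Schwann cell list and not on the granular duct list.

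The Klk1 and Klk1b tissue kallikreins are clustered serine proteases of very similar sequence, so single members are uncertain. Klk1b21 was at 8.05 in submandibular gland against 0.58 and 1.52 in parotid (difference 7.0 ± 0.42, limma adjusted p = 0.00305). Klk1b16 was at 8.05 against 0.21 and 1.95 (adjusted p = 0.0105). Klk1b1 was at 2.32 and not well above background in parotid, at least 59.82-fold higher in submandibular gland (adjusted p = 0.0059). Klk1b9, Klk1b24 and Klk1b27 were also called. Klk1b26, at 9.89 against 5.56 and 6.09, and Klk1b3, at 9.36 against 7.48 and 8.34, met the agreement rule but not the test (adjusted p = 0.119 and 0.421). Klk1 itself, true tissue kallikrein, at 10.00 against 8.06 and 8.86, likewise met the rule as higher in submandibular gland but not the test (adjusted p = 0.693). The mean difference was 1.45 log2 units for Klk1b3, 1.54 for Klk1 and 7.90 for Klk1b1. The probes of Klk1, Car6 (9.99) and Scgb1b27 (9.95) gave the brightest submandibular signals of the genes named here. Klk1 was well above background on both parotid arrays, and Klk1b1 on neither. Whether the upper end of the signal range narrowed the differences of Klk1 and Car6 was not tested.

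The upstream sequences of these genes are shown because the members differ so much in gland difference while their promoters share stretches. The sequences are RefSeq annotations on GRCm38.p6, each the 100 bases before the annotated start, and capitals mark GTCAGCATCTG, the stretch of 11 letters found in most promoters of the cluster.
Klk1b1 (chr7:43966651-43966750, plus strand): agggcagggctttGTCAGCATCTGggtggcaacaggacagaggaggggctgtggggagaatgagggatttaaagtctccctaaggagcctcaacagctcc
Klk1b16 (chr7:44137190-44137289, plus strand): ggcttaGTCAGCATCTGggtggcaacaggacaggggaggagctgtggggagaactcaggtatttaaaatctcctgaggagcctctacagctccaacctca
Klk1b21 (chr7:44102192-44102291, plus strand): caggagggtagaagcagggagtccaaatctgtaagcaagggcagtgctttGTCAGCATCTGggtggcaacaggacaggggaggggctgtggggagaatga
Klk1 (chr7:44225260-44225359, plus strand): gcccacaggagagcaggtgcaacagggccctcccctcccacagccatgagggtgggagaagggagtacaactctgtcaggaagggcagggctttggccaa
On either strand of the 250 bases before the start, the stretch stood in 12 of 14 Klk1 and Klk1b promoters and in 21 of all 32851 promoters (0.0639%). It was chosen for standing in the most promoters of this cluster of similar genes, so these counts are no test of enrichment. Klk1 and Klk1b22 did not hold it in this window. Klk1b3, whose gland difference given above was near that of Klk1, did hold it, so small differences were seen with and without the stretch. Annotated starts of the cluster differ in position, so a missing match can come from the window. A match is a description of letters and not a bound site.

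The cysteine-rich secretory proteins Crisp1 and Crisp3, encoded on the same chromosome, differed in opposite directions. Crisp3 (probe at chr17:39696034-39696093, mm8) was at 8.24 in submandibular gland and at 2.18 and 1.76 in parotid. Its difference was 6.27 ± 0.33 (limma adjusted p = 0.00197). Crisp1 (probe within chr17:39761668-39764808, mm8) was at -0.78 in submandibular gland and at 8.43 on both parotid arrays, a difference of -9.21 ± 1.54 (limma adjusted p = 0.0418). Crisp1 was on the granular duct list, and with Hgf, hepatocyte growth factor, it was one of the 2 members that met the rule as higher in parotid. The 100 bases before the annotated start of the 2 genes are shown because they are nearly the same, with the bases that differ in capitals (RefSeq, GRCm38.p6).
Crisp1 (chr17:40319208-40319307, minus strand): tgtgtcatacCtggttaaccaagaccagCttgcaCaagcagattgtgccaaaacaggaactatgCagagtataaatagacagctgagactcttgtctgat
Crisp3 (chr17:40242289-40242388, minus strand): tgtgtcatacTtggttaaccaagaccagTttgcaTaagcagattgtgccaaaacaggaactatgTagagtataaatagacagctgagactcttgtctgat
The 2 sequences differed at 4 of 100 bases, written from Crisp1 to Crisp3 as C11T, C29T, C35T and C65T and counted from 1 at the 5′ end of the stretch. Over 250 bases they differed at 11. Both hold TATAAA, which stood on either strand in 12.4% of all promoters of that length. The opposite gland preference was thus seen for genes with near-identical proximal promoter letters, and what else differs between them was not examined.

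On the parotid side most of the leading genes with a symbol encoded secreted proteins, with the claudin Cldn22 and Aspdh among the exceptions. Of 26 listed serous acinar secretory proteins 22 were tested. By the rule 9 were higher in parotid, beside 4.81% of all genes. No member met it as higher in submandibular gland, beside 4.71% of all genes. The limma test called 5 members as higher in parotid. The list median was -1.36 (-1.51 against parotid 1 and -1.51 against parotid 2), beside -0.0043 over all genes. It lies between members with very large differences and members whose submandibular level lay between the parotid arrays.

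Bpifa2, parotid secretory protein (probe within chr2:153705192-153705905, mm8), was at 0.36 in submandibular gland and at 9.61 and 10.88 in parotid. The difference was -9.89 ± 0.71 (limma adjusted p = 0.00577), and the gene was above background on all 3 arrays. Amy1, salivary amylase, was at 4.0 against 9.74 and 10.87. It was 53.59-fold lower than the nearer parotid array and met the agreement rule, but its adjusted p was 0.388, and the SD between the 2 untreated tumour arrays was 6.33 log2 units. Amy2a5, a pancreatic amylase copy whose probe can read related transcripts, was at -2.80 in submandibular gland, not well above background. It was at 7.78 and 7.98 in parotid (limma adjusted p = 0.0548). Its 1648-fold difference rests on that dim reading and is not a lower bound. Dnase1, a secreted nuclease, was at -0.43 against 9.02 and 10.06, with an adjusted p of 0.165 and an untreated tumour SD of 6.17. For Amy1, Amy2a5 and Dnase1 the SD between the parotid arrays was 0.80, 0.14 and 0.73, far below that between the tumours.

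The proline-rich proteins, abundant tannin-binding proteins of saliva, were higher in parotid together. Prb1 was at -3.96, not well above background, in submandibular gland and at 8.41 and 8.53 in parotid, at least 2748-fold higher (limma adjusted p = 0.0245). Prpmp5 was at least 609.7-fold higher, at 7.01 and 5.59 in parotid (adjusted p = 0.0059). Prp2 was at -0.57 against 8.85 and 8.62, a difference of -9.30 ± 0.28 (limma adjusted p = 0.000485). Prh1 was at -1.43 against 7.71 and 7.08 (adjusted p = 0.000572), but its other probe differed by only -0.74, so this gene depends on the probe. These 4 are close relatives, and signal shared between their probes cannot be separated.

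Their upstream sequences are shown because the 4 genes differed in the same direction and share a TATA-containing stretch. Each is the 100 bases before the annotated start (RefSeq, GRCm38.p6), with TCCTTATAAAG, the longest stretch they share, in capitals.
Prb1 (chr6:132210522-132210621, minus strand): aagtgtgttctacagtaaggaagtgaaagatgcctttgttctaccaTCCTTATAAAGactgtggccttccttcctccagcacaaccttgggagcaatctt
Prpmp5 (chr6:132314744-132314843, minus strand): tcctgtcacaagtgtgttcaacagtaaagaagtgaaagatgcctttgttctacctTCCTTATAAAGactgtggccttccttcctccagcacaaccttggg
Prh1 (chr6:132569742-132569841, plus strand): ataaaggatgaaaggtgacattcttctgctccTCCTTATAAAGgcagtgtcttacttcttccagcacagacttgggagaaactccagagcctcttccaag
Prp2 (chr6:132595811-132595910, plus strand): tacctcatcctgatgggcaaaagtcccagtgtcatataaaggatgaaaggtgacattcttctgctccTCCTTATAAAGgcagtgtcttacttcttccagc
It overlaps TATAAA, and on either strand of the 250 bases before the start it stood in all 4 and in 15 of 32851 promoters (0.0457%). Its presence in all 4 was fixed by the way it was chosen, and the genes are close relatives, so these counts are no test of enrichment. No Klk1 or Klk1b promoter and neither Crisp promoter held it in that window.

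Some serous genes lay between the parotid arrays. Car6, secreted carbonic anhydrase, was at 9.99 in submandibular gland, between 9.62 and 10.72 in parotid (adjusted p = 0.95). Pip, prolactin-inducible protein, was likewise between the parotid arrays, at 9.55 against 9.13 and 10.35, and so was Lpo, lactoperoxidase, at 8.71 against 8.02 and 10.35. Bhlha15, the transcription factor Mist1 of mature serous cells, was at 6.6 against 6.17 and 7.44 (adjusted p = 0.889). Cst3, cystatin C, in contrast met the agreement rule as higher in parotid, at 4.83 against 6.39 and 6.21, but not the test (adjusted p = 0.0724).

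A list of secretory proteins known from submandibular and sublingual acini did not follow its name. Of 26 genes 20 were tested. By the rule 3 were higher in submandibular gland and 4 in parotid, beside 4.71% and 4.81% of all genes. The limma test called 2 and 3. The median difference was -1.11, but -0.34 against parotid 1 alone.

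The 4 higher in parotid were the Dcpp genes, named for demilune cells and parotid, and Smr3a, a gene of the submaxillary androgen-regulated family. Dcpp1 (probe within chr17:23609049-23610089, mm8) was not well above background in submandibular gland and at 9.20 and 10.14 in parotid, at least 6305-fold higher (limma adjusted p = 0.000572). Dcpp2 was at 6.07 and 6.08 in parotid, at least 521.5-fold higher (adjusted p = 0.00149), and Dcpp3 at 6.0 and 3.95, at least 243.7-fold higher (adjusted p = 0.0146). The 3 are near-identical genes and their signals may overlap. Smr3a was at 9.28 and 9.79 in parotid and at background in submandibular gland, at least 5731-fold higher, with an adjusted p of 0.0607.

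The 3 higher in submandibular gland were Smgc, Prol1 and Wfdc2. Smgc, submandibular gland protein C (probe at chr15:91688669-91688728, mm8), is the symbol under which the RefSeq table also holds Muc19, the mucin of sublingual mucous cells. It was at 7.22 against -6.24 and -1.87, the former at background (difference 11.27 ± 1.56, limma adjusted p = 0.024). A second probe of the gene differed by only 0.53, so the products of this locus were not all different. Prol1, which the array annotation names Muc10, was at 8.62 against 1.32 and 4.26 (adjusted p = 0.0707). It was not among the proline-rich genes described above as higher in parotid. Wfdc2, a protease inhibitor relative, was at 8.32 against 4.93 and 5.8 (difference 2.95 ± 0.43, limma adjusted p = 0.027).

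Cst10, a cystatin, had the largest agreed difference of the genes with a symbol, by the smaller of its 2 differences. It was at -5.20, not well above background, in submandibular gland and at 9.31 and 10.61 in parotid. It was at least 7701-fold higher in parotid, with an adjusted p of 0.0626. Chia1, acidic chitinase, was at least 4963-fold higher at 8.71 and 9.94 in parotid (adjusted p = 0.0853). Csn3, kappa casein, was at 4.69 and 4.21 in parotid, at least 168.7-fold higher (adjusted p = 0.0128), and Aspdh, named as an aspartate dehydrogenase, at 4.01 and 2.97, at least 86.85-fold higher (adjusted p = 0.0064).

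**Figure D2:**
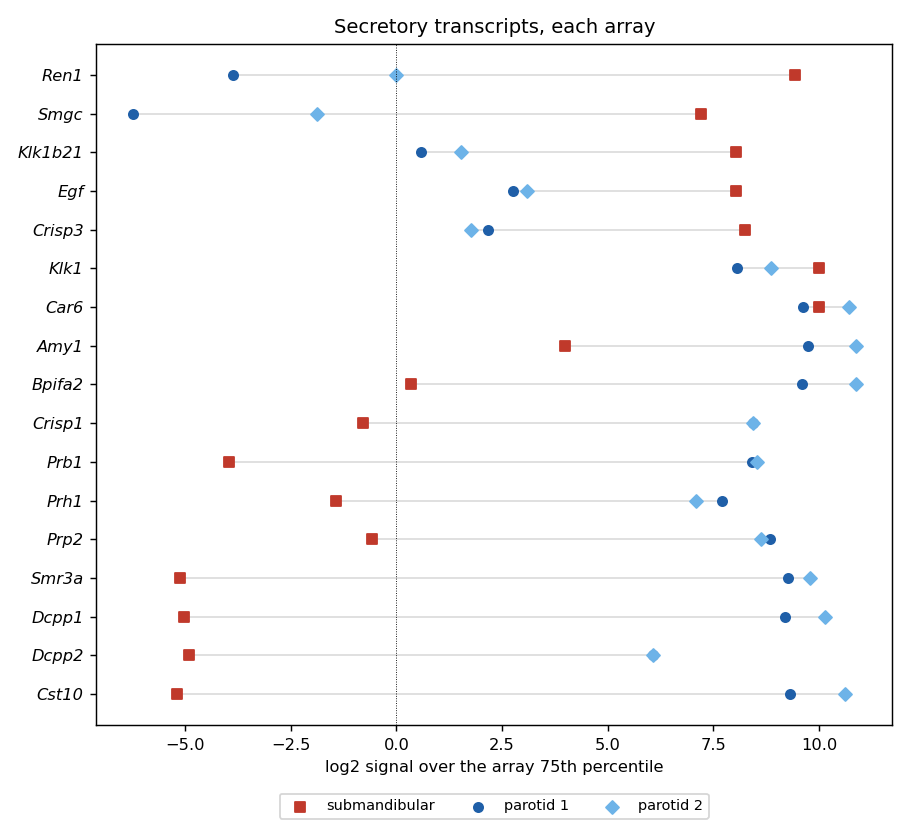
Level of 17 secretory genes on each array (horizontal axis, log2 signal over the 75th percentile of the array), one gene per row, with a red square for submandibular gland, a dark blue circle for parotid 1 and a light blue diamond for parotid 2. Ren1 to Crisp3 lie to the right in submandibular gland, Klk1 is to the right of both parotid arrays by a smaller distance, Car6 lies between them, and Amy1 to Cst10 lie to the right in both parotid arrays.

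The androgen-binding proteins, secretoglobin dimers of saliva, went in both directions and differed between the parotid arrays. Of 14 listed genes 6 were tested. By the rule 2 were higher in submandibular gland and 3 in parotid, beside 4.71% and 4.81% of all genes. Scgb2b26 was at 9.17 in submandibular gland against -1.92 and 2.73 (limma adjusted p = 0.0572), and Scgb1b27 at 9.95 against 5.89 and 6.63 (adjusted p = 0.177). Scgb2b20 was at background in submandibular gland and at 5.84 and 10.31 in parotid, at least 2087-fold higher (adjusted p = 0.0197), the one member called. Scgb1b2 at 5.95 and 9.80 (adjusted p = 0.0669) and Scgb2b2 at 4.65 and 10.86 (adjusted p = 0.0778) likewise differed by several log2 units between the parotid arrays. These are multigene families of close copies, so single members are uncertain.

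The mucous cell list had 6 of 18 tested genes higher in submandibular gland by the rule and 1 higher in parotid, of 30 listed. The shares over all genes were 4.71% and 4.81%. The limma test called 3 and 1. Muc13, a membrane mucin, was at 2.76 in submandibular gland and not well above background in parotid, at least 81.33-fold higher (limma adjusted p = 0.00452). Creb3l4, a transcription factor of secretory cells, was at 1.70 against -0.64 and -1.12 (difference 2.58 ± 0.37, adjusted p = 0.0256). Muc5ac, a gel-forming mucin, was at -0.67 and at background in parotid, at least 7.51-fold higher with an adjusted p of 0.0525. St3gal6, a sialyltransferase, was the member higher in parotid, at -1.46 against 5.06 and 4.83 (difference -6.41 ± 0.32, limma adjusted p = 0.00197). Smgc, listed as Muc19, was among the 6 members and the 3 calls. The list median was 0.27, but 0.86 against parotid 1 and -0.088 against parotid 2. It was -0.19 with normexp background correction, -0.043 with the deposited values and -0.048 with the filter on all 8 arrays, so the list as a whole had no clear direction.

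Of 38 listed genes of acinar fluid secretion and exocytosis 36 were tested, 7 met the rule as higher in submandibular gland and 1 as higher in parotid, beside 4.71% and 4.81% of all genes, and the limma test called 2 and 1. Aqp5, the apical water channel of acini, was at 7.43 against 6.73 and 7.34 (difference 0.39 ± 0.35, limma adjusted p = 0.661). Slc12a2, the basolateral chloride uptake transporter NKCC1, was at 5.78 against 5.37 and 5.15 (difference 0.51 ± 0.26, limma adjusted p = 0.395). Ano1, the calcium-activated chloride channel, was at 2.03 against 3.18 and 2.81 (difference -0.96 ± 0.26, limma adjusted p = 0.129). These misses do not show equal levels, since the self-test on simulated data called 0% of genes shifted by 1 log2 unit and 36% of those shifted by 2.

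The called members of that list were carbonic anhydrase Car13, at 3.08 against -0.70 and -0.47 (difference 3.67 ± 0.35, limma adjusted p = 0.0104), and Fxyd2, the gamma subunit of the sodium pump, at 4.73 against 1.85 and 2.45 (adjusted p = 0.0314). Slc39a8, a metal ion importer, was higher in parotid, at -1.62 and -1.67 and at background in submandibular gland, at least 2.48-fold higher (adjusted p = 0.0424). Adra1a, an alpha adrenergic receptor, was at -0.98 in submandibular gland and at background in parotid, with an adjusted p of 0.0843.

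Duct ion transport genes were higher in submandibular gland in larger number. Of 61 listed genes 52 were tested. By the rule 23 were higher in submandibular gland, beside 4.71% of all genes. Aqp1, a water channel also of endothelium, was the 1 higher in parotid, beside 4.81% of all genes. The limma test called 10 as higher in submandibular gland. The median difference was 0.97 (1.35 against parotid 1 and 0.56 against parotid 2).

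The epithelial sodium channel takes up sodium at the apical face of duct cells. Its beta subunit Scnn1b (probe at chr7:121709218-121709277, mm8) was at 2.86 in submandibular gland against -1.68 and -0.74 (difference 4.07 ± 0.55, limma adjusted p = 0.0232). The gamma subunit Scnn1g was at 2.15 against -2.11 and -1.46 (difference 3.94 ± 0.54, adjusted p = 0.0235). The alpha subunit Scnn1a was at 4.51 against 1.42 and 2.47 and missed the threshold (difference 2.57 ± 0.46, adjusted p = 0.0518). All 3 subunits were above both parotid arrays. Sgk1, a kinase that raises the activity of this channel, was at 5.28 against 2.37 and 2.50 (adjusted p = 0.0064).

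Genes of chloride pathways also stood above both parotid arrays. Cftr, the cyclic AMP-regulated chloride channel (probe at chr6:18272483-18272542, mm8), was at -0.06 against -3.87 and -3.15, the latter not above background (difference 3.44 ± 0.54, limma adjusted p = 0.0346). Bsnd, an accessory subunit of chloride channels, was at -0.01 and at background in parotid, at least 11.4-fold higher with an adjusted p of 0.0513. Clcn2 was at 2.21 against 0.57 and 0.19 (adjusted p = 0.0296).

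For potassium, Kcnk5 was at 0.76 against -3.37 and -3.16 (difference 4.03 ± 0.39, limma adjusted p = 0.0105) and Kcnq1 at 4.51 against 0.86 and 1.82 (adjusted p = 0.024). For acid and base, the sodium-proton exchanger Slc9a2 was at 2.61 against -1.0 and -0.13 (adjusted p = 0.0355), and the membrane carbonic anhydrase Car12 at 4.18 against 1.65 and 1.48 (adjusted p = 0.0246). Proton pump subunits of ionocyte-like cells, Atp6v0d2 at 0.19 and Atp6v1b1 at -0.83, were above parotid by the rule but missed the threshold (adjusted p = 0.0568 and 0.0706).

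**Figure D3:**
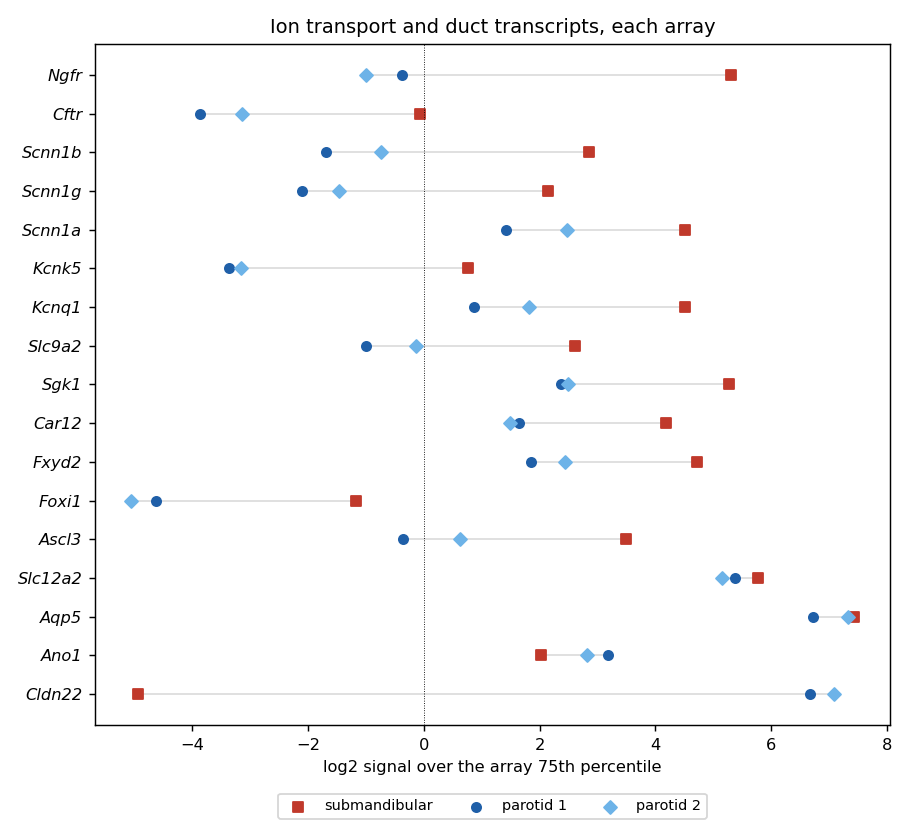
Level of Ngfr, of the nerve and Schwann cell list, and of ion transport, duct and fluid secretion genes, 17 genes in all, on each array (horizontal axis, log2 signal over the 75th percentile of the array). A red square marks submandibular gland, a dark blue circle parotid 1 and a light blue diamond parotid 2. From Ngfr to Ascl3 the submandibular value exceeds both parotid values, Slc12a2 and Aqp5 are close, and Cldn22 is high in parotid alone.

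Of 52 listed duct and duct-lineage genes 48 were tested. By the rule 15 were higher in submandibular gland and 3 in parotid, beside 4.71% and 4.81% of all genes. The limma test called 5 and 3. Ascl3, a transcription factor of duct progenitors and ionocytes, was at 3.49 against -0.36 and 0.62 (difference 3.36 ± 0.53, adjusted p = 0.0348). Foxi1, the ionocyte transcription factor, was at -1.17 and at background in parotid, at least 5.31-fold higher, but with an adjusted p of 0.0992. Tspan8, a tetraspanin, was at 3.92 against -0.16 and -0.54 (adjusted p = 0.0113), and Cldn8, a tight junction protein of tight epithelia, at 4.27 against 0.79 and 1.52 (adjusted p = 0.0215).

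Parotid in turn had Cldn22, a claudin (probe at chr8:49324114-49324173, mm8), at 6.67 and 7.08 and at background in submandibular gland. It was at least 907.5-fold higher (limma adjusted p = 0.00305). Stc2, a secreted glycoprotein hormone relative, was at least 8.58-fold higher (adjusted p = 0.0146), and Calml3, a calmodulin-like protein, was at 0.17 against 3.99 and 3.46 (adjusted p = 0.0113). Of the 12 claudins tested, of 19 listed, Cldn8 and Cldn22 alone met the rule, in opposite directions. Over all genes 4.71% met it as higher in submandibular gland and 4.81% as higher in parotid.

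No basal or myoepithelial gene passed the limma test. Of 20 listed genes 17 were tested, and 9 had an unadjusted p under 0.05 in the limma test and none an adjusted one. By the rule 5 were higher in submandibular gland, beside 4.71% of all genes: Krt15, Myh11, Actg2, Itga6 and Tagln. Another probe of Itga6 went the opposite way, at -0.70. The list median was 1.49 (2.10 against parotid 1 and 1.26 against parotid 2). Myh11, smooth muscle myosin, was at 3.62 against 0.32 and 1.53 (adjusted p = 0.0637), and Actg2, smooth muscle actin, at 0.92 against -1.19 and -0.98 (adjusted p = 0.0525). Actg2 and Myh11 are also made by smooth muscle of vessels.

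Transcription factors of the gland epithelium included members in both directions. Of 50 listed 42 were tested, 6 met the rule as higher in submandibular gland and 2 as higher in parotid, beside 4.71% and 4.81% of all genes, and the limma test called 3 and 1. Sox9 was at 2.15 against 1.67 and 2.47 and Sox10 at 4.52 against 4.19 and 4.61, both between the parotid arrays. Kit, a receptor on the duct and duct-lineage list and not on this one, was at 0.52 against 0.64 and 0.57 (adjusted p = 0.925). Sox2 was not well above background on any of the 3 arrays.

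Among the called factors were Sox4, at -0.12 against -2.27 and -2.46 (difference 2.24 ± 0.29, limma adjusted p = 0.0214), and Id2, at 4.64 against 2.95 and 2.82 (adjusted p = 0.0212). Id2 is an inhibitor of basic helix-loop-helix factors. Etv1, an ETS factor downstream of FGF signalling in branching glands, was higher in parotid, at 3.72 against 5.71 and 5.28 (difference -1.78 ± 0.30, adjusted p = 0.0445).

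Among 36 tested homeobox and regional patterning genes of 73 listed, 4 met the rule in each direction, beside 4.71% and 4.81% of all genes. The limma test called 2 as higher in submandibular gland and 1 in parotid, beside 1.36% and 0.984% of all genes. Pax9, a paired-box factor of pharyngeal and oral development (probe at chr12:57628194-57628253, mm8), was at 0.23 in submandibular gland against 3.76 and 3.64 in parotid, a difference of -3.47 ± 0.26 (limma adjusted p = 0.0059). Tbx3, a T-box factor, was at 2.87 against -1.73 and -1.19 (difference 4.33 ± 0.65, adjusted p = 0.0296), and Eya2, a transcriptional cofactor, at 3.27 against 0.61 and 1.19 (adjusted p = 0.0334). Tlx1, a homeobox gene outside the list, was at 1.89 and at background in parotid, at least 44.35-fold higher in submandibular gland (limma adjusted p = 0.00592).

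Pitx1, the oral ectoderm homeobox factor, was at 6.02 against 4.77 and 5.01 and met the rule but not the test (adjusted p = 0.098). Nkx2-3, a factor of tongue and sublingual mucous cells, was not well above background on any of the 3 arrays. Smr2, a submaxillary androgen-regulated gene, had no probe that passed the filter. Lhx8 and Hoxd4 were higher in parotid by the rule at low levels, between -2.13 and -2.90, with adjusted p of 0.113 and 0.223.

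Of 78 listed branching and morphogenesis signals 61 were tested. By the rule 8 were higher in submandibular gland and 2 in parotid, beside 4.71% and 4.81% of all genes. Wnt4 was the one called, beside 1.36% of all genes called as higher in submandibular gland. The parotid count and the call were near these shares. Wnt4, a secreted Wnt ligand also on the duct list, was at 3.28 against -0.91 and 0.09 (difference 3.69 ± 0.49, limma adjusted p = 0.0226). Slit2, a guidance ligand, was at 4.26 against 0.42 and 0.58 (adjusted p = 0.171), and the activin subunits Inhba and Inhbb also met the rule (adjusted p = 0.0932 and 0.0917), though another probe of Inhbb differed by only -0.10. The median difference of the list was 0.42 (0.61 against parotid 1 and 0.092 against parotid 2).

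**Figure D4:**
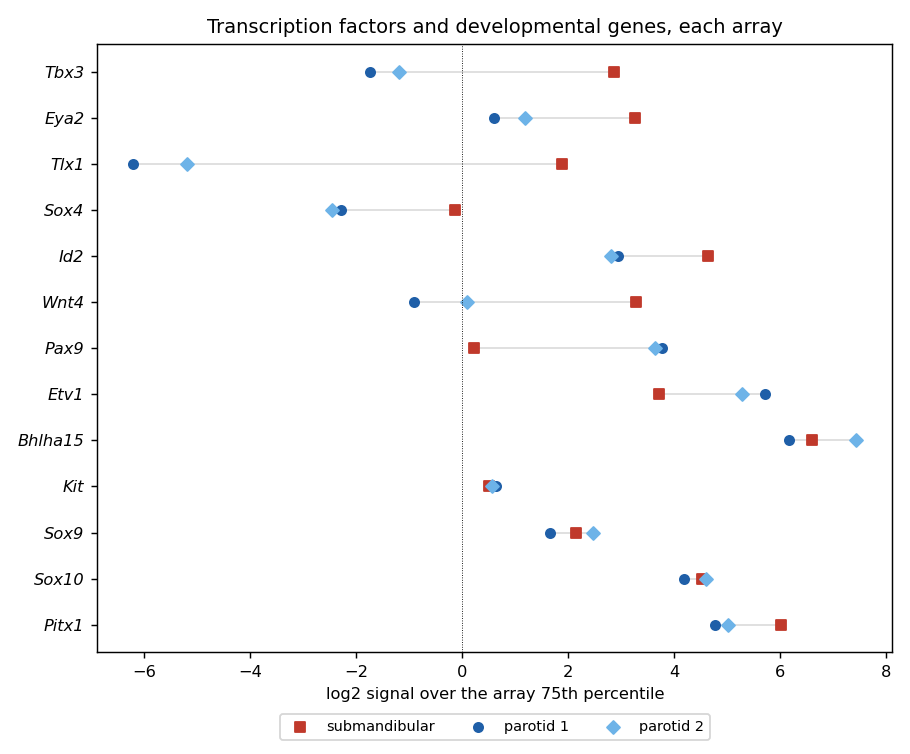
Level of 13 transcription factors and developmental genes on each array (horizontal axis, log2 signal over the 75th percentile of the array), with a red square for submandibular gland, a dark blue circle for parotid 1 and a light blue diamond for parotid 2. Tbx3 to Wnt4 and Pitx1 exceed both parotid values in submandibular gland, Pax9 and Etv1 lie below both, and Bhlha15, Kit, Sox9 and Sox10 lie within about a unit of both.

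Other genes that led the submandibular side by the rule lie outside these lists. Duoxa2, the maturation factor of dual oxidase 2, was at 2.73 and at background in parotid, at least 79.47-fold higher (limma adjusted p = 0.0113). Spata31d1d, named for spermatogenesis, was at least 104.8-fold higher (adjusted p = 0.0059) and Igfals, which carries insulin-like growth factors, at least 14.38-fold higher (adjusted p = 0.00915). Gcgr, the glucagon receptor, was at 3.72 against -2.62 and -2.32 (difference 6.19 ± 0.42, adjusted p = 0.00452). Gpr155, an orphan receptor, was at 5.54 against -0.50 and -1.01 (adjusted p = 0.00205), and the activity-regulated gene Arc at 4.06 against -1.98 and -3.23 (adjusted p = 0.0064). Lman1l, a lectin relative of cargo receptors, was at 3.92 against -2.95 and -5.07 (adjusted p = 0.0146). For Fn1, fibronectin, probes disagreed, from -2.12 to 6.14.

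Markers of other cell types differed between the parotid arrays. The mean level of 23 skeletal muscle genes was -3.73 on the submandibular array, -3.86 on parotid 1 and 1.38 on parotid 2, with 4, 9 and 22 of them well above background. That of 12 T cell genes was -0.57, 2.62 and -1.35 and that of 12 B and plasma cell genes -1.47, 2.29 and -2.12, so lymphocyte genes stood out on parotid 1. No T cell or B and plasma cell gene met the agreement rule, and 4 muscle genes (Des, Myh7, Eno3 and Tnnt1) met it as higher in parotid. Fat genes averaged 0.20, 0.58 and 2.30 (14 genes). Endothelial genes averaged -0.17, 0.09 and 0.14 (14 genes) and fibroblast genes 1.80, 1.53 and 1.78 (15 genes). Of 17 macrophage and dendritic cell genes tested, only Cd163 and Cd68 met the rule, as higher in parotid, and none was called. Their list median was -0.33. Over all genes 4.81% met the rule as higher in parotid. Of 10 nerve and Schwann cell genes tested, Ngfr and Ncam1 met the rule as higher in submandibular gland, beside 4.71% of all genes. The part of these cell types in the other differences was not tested.

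The sex-linked transcripts also split the arrays. Xist, the X inactivation transcript, was at 3.1 on the submandibular array, 4.46 on parotid 1 and -5.17 on parotid 2. The 3 Y-linked genes tested were above background on parotid 2 alone. The submandibular array and parotid 1 thus had a female pattern and parotid 2 a male one. The 2 parotid arrays therefore did not measure RNA of the same animal. Submandibular gland and parotid 1 shared the Xist pattern but lay on different slides, and submandibular gland and parotid 2 lay on the same slide. Granular duct products were higher in submandibular gland against each of them, with list medians of 5.41 and 4.76. For the androgen-binding proteins the list median was -7.47 against parotid 1 and -13.66 against parotid 2. The part of sex in these differences was not tested.

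**Figure D5:**
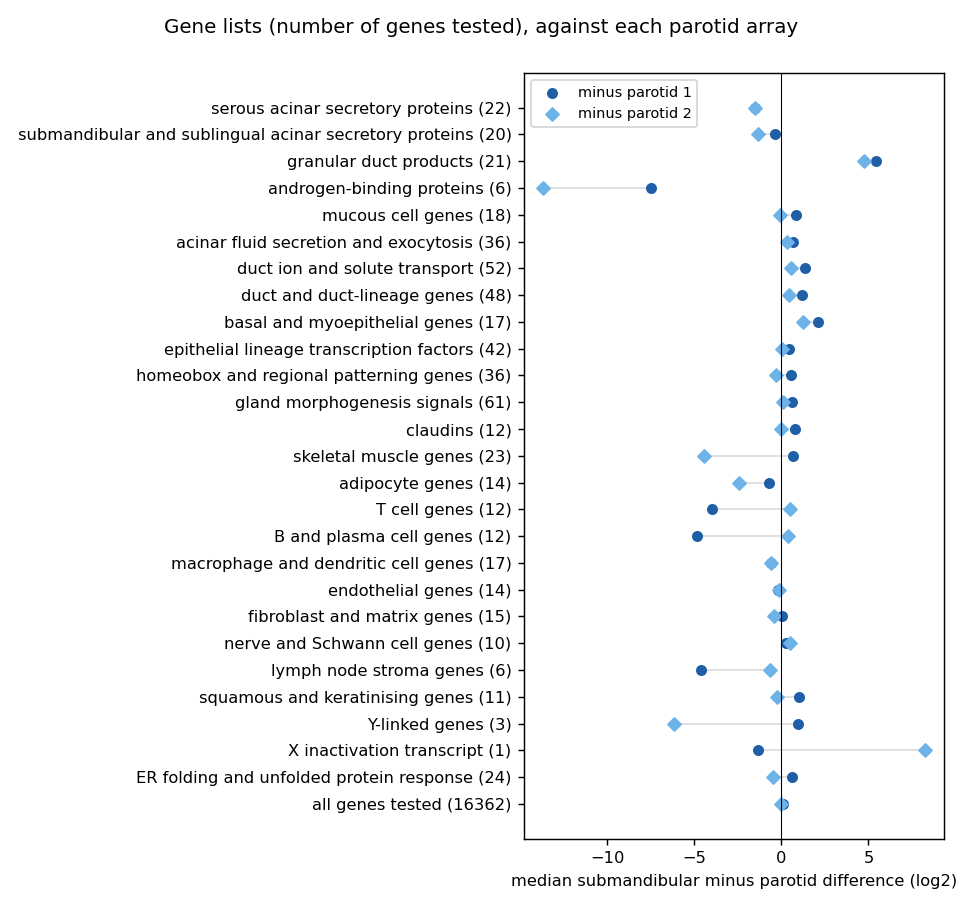
Median submandibular minus parotid difference (horizontal axis, log2) of each gene list against parotid 1 (dark circle) and parotid 2 (light diamond), with the number of genes tested in brackets. Granular duct products lie right of 0 for both parotid arrays, and muscle, lymphocyte, lymph node and sex-linked lists have their 2 points far apart.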

How the data were processed

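RNA from 8 mouse samples was measured on 1-colour Agilent arrays (probe positions on mm8). Per the file headers, the authors' Feature Extraction 10.7.3.1 gave a background-subtracted, spatially detrended intensity for each of 43379 spots (41174 probes), not scaled between arrays. The deposited value table is on a log2 scale of unstated centring, with column medians of 5.52 to 5.57 and correlations of 0.971 to 0.9795 with the arrays, and served as an alternative.

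The log2 intensity minus the array's 75th percentile was used. Spots marked non-uniform or outlying were left out. To be kept (24279 probes), a probe had to be well above background on all arrays of 1 or more of the 5 groups, and the brightest stood for each gene. Names came from RefSeq accessions (23374 probes), symbols (6733), synonyms (2919) or the files (8148). limma 3.58.1 (R 4.3.3) fitted 5 group means over 8 arrays with an intensity trend (3 residual degrees of freedom), two-sided, Benjamini-Hochberg threshold 0.05. "At least" folds set the brighter group's mean against the dimmer group. Each dimmer array was taken at the gene's own level or at its lowest signal well above background, whichever was higher. No spot was saturated. The number of arrays limits the precision.

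In simulated data of 16362 genes, with 1 array against 2, the test called 0%, 36%, 82% and 100% of genes shifted by 1, 2, 4 and 8 log2 units and 0.0866% of unshifted genes. The members, lists and naming rule were chosen with earlier results of these data known. Named were the 20 genes per direction with the largest smaller-of-two difference under the agreement rule (clone-type names passed over), up to 5 members per list and direction, and a fixed set of gland genes; the other list members were named after their values were seen. Of 687 list symbols 669 were found and 540 tested. Some genes that the rule names are not reported here. Of the other 116, 86 had a RefSeq promoter. The alternatives were other background correction, normalization, filters, probe summary, slide blocks, subsets of arrays and thresholds.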

Additional observations from a re-analysis of the deposited data

How the results depend on the processing

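The submandibular gland rests on 1 array, so its own spread was not measured, and dim genes have bounds only. The number of genes called was 384. It was 669 with quantile normalization, 224 with a filter on all 8 arrays, 118 with the slide as a fixed block and 81 with the 3 normal arrays alone, and 9 to 3385 with one array left out: 9 without either day 14 array, 183 and 187 without an untreated tumour array, 1936 without parotid 1 and 3385 without parotid 2. Of 55 named calls, 46 were lost without either day 14 array. The agreement rule gave 770 genes higher in submandibular gland and 787 in parotid: 483 and 336 with normexp, 437 and 327 with the filter on all 8 arrays, 326 and 285 at 2 log2 units or more, 1277 and 1804 on slide 2 alone or without parotid 1, and 1772 and 2572 without parotid 2. The serous acinar median, -1.36, was -1.17 with normexp, -1.36 with quantile normalization, -1.24 with the deposited values, -1.26 with no filter, -1.23 with the filter on all 8 arrays, -1.88 with a filter on the normal glands, -1.30 and -1.35 with the slide as a fixed and random block, and -1.51 with either parotid array left out. The morphogenesis median was 0.032 with normexp and the duct ion transport median 2.03 with the filter on the normal glands. Without parotid 1 and without parotid 2, the submandibular and sublingual acinar median was -1.34 and -0.34, the basal median 1.26 and 2.10, and the homeobox median -0.29 and 0.54. In the same order the difference was -0.73 and 0.37 for Car6, -0.83 and 0.44 for Bhlha15, -0.033 and 0.93 for Sox2, -0.32 and 0.48 for Sox9, -0.090 and 0.32 for Sox10, and -0.14 and 1.02 for Nkx2-3. Other reversals were Sox2 (-0.055) and Nkx2-3 (-0.67) with normexp, Nkx2-3 (-0.21) and Car6 (0.16) with quantile normalization, Car6 (0.21) with the deposited values, and Sox9 (-0.12) and Sox10 (-0.10) with the slide as a fixed block. The cause of these changes was not tested. No paired analysis was possible because the submandibular gland has 1 array and its label carries no replicate number.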

Other observations

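Genes that failed the agreement rule included transcripts high in 1 parotid array alone, named here after their values were seen. Ltf, lactoferrin, was at -4.86 in submandibular gland, -2.72 on parotid 1 and 6.08 on parotid 2. Aqp8, a water channel, was at -5.09, -2.22 and 6.35. Agr2, a disulphide isomerase of mucous cells, was at 3.50, 0.04 and 7.81, so the submandibular value lay between the parotid values. Mucl2, a mucin-like secretory protein, was at 8.83, 2.97 and 8.93, with submandibular gland close to parotid 2. The submandibular array lay between the parotid arrays in 5600 of 16362 genes (34.2%).

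For the chaperones and folding enzymes of the endoplasmic reticulum, the submandibular mean level of 4.23 lay between 3.60 on parotid 1 and 4.63 on parotid 2. Of 24 genes tested none met the agreement rule, and the median difference was 0.13 (0.62 against parotid 1 and -0.45 against parotid 2). This does not show equal levels in the glands. Hspa5, the chaperone BiP, was at 6.66 in submandibular gland against 6.12 and 6.44, and Xbp1, a transcription factor of secretory cells, at 3.92 against 3.82 and 3.86.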
